A study of Mus musculus with 4 samples.

Results

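The genes that govern the step from G1 into S phase of the cell cycle were examined in liver tumour DNA. The list held 9 names, Cdkn1a, Cdkn2a, Cdkn2b, Cdkn2c, Rb1, Cdk6, Ccne1, Ccne2 and E2f1. They were chosen by gene name, with earlier results of these data known. Of these, 8 had probes on the array among 20749 gene names in use, and no probe carried the name Cdkn2b. A gene's window ran from the first probe with its name to the last and 50 kb beyond each, and was set against the probes within 1 Mb on each side outside it, the surroundings. The 8 windows held 99 probes, 35 of them named for the gene itself, and no probe lay in more than 1 window.

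DNA of 4 liver tumours (genotype Trp53-/-, male, each from its own untreated C57BL/6J mouse with Trp53 lost specifically in the liver) was co-hybridised with pooled DNA of 3 littermates of the same sex on Agilent tiling arrays. Tumour DNA carried Cy5 and the pooled DNA Cy3, so log2 ratios above 0 stand for a surplus in the tumour. The pool was spleen by the design and the channel labels but liver by the labelling protocol, and its label also reads Trp53-/- and male, so the pool is no Trp53 wild-type control. The driver of the liver-specific loss and the ages of the mice are not given in the sources used here.

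Entry into S phase is held back by the retinoblastoma protein, Rb1, which binds E2F transcription factors such as E2f1. Cyclin-dependent kinases lift this block: Cdk6 acts with D-type cyclins and Cdk2 with the E-type cyclins Ccne1 and Ccne2. The INK4 inhibitors, encoded by Cdkn2a, Cdkn2b and Cdkn2c, bind Cdk4 and Cdk6. Cdkn1a encodes p21, an inhibitor of cyclin-dependent kinases that p53 switches on. In tumours the INK4 genes and Rb1 are known as targets of deletion, and Cdk6 and the cyclins as targets of amplification.

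The probes on which the results turn are shown first, as printed on the array, with G and C in capitals because probe GC content enters the comparisons. Positions are those of the array design on mm9, whose gene annotation was not used here, so exons and introns are not given, nor is the strand of a probe. The first 3 are the Cdkn1a probe and the lowest and next-lowest probes of its window by mean, apart from the Cdkn1a probe itself. Next come the Ccne2 probe and the lowest of the Rb1 probes, and last 2 adjacent probes beside Ccne1 that carried the highest ratios near any of the genes.
Cdkn1a probe, chr17:29235110-29235166: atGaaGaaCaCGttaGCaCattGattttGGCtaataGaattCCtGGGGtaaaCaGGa
Lowest probe of the Cdkn1a window, chr17:29191745-29191804: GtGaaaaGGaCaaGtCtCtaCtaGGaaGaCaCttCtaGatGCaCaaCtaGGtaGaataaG
Next-lowest probe of that window, chr17:29225806-29225865: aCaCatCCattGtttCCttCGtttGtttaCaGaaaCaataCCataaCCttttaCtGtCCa
Ccne2 probe, chr4:11124157-11124216: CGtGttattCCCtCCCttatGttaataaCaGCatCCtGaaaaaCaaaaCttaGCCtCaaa
Lowest Rb1 probe, chr14:73643613-73643672: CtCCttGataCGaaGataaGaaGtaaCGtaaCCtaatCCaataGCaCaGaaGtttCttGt
First probe beside Ccne1, chr7:38960941-38961000: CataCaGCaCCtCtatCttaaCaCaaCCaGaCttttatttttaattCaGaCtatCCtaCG
Second probe beside Ccne1, chr7:38968142-38968201: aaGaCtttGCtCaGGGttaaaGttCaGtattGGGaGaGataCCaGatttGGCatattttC

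Each array gave 170305 probes, 161460 of them autosomal, at a median spacing of 10.9 kb. The SD from differences between neighbouring probes was 0.26, 0.32, 0.16 and 0.17 in tumours 1 to 4. It takes in any probe pattern that tumours share, so it does not measure noise alone. Tumours 1 and 4 shared a slide, yet over the autosomal probes the closest pair was tumours 1 and 2 (Pearson's r = 0.84), and tumour 3 was least like tumour 1 (r = 0.094). Tumour 1 stood farthest from 0 on the sex chromosomes: although labelled male, it had a mean of 0.81 on X and -3.03 on Y. Tumours 2, 3 and 4 averaged 0.18, 0.037 and -0.050 on X and -1.12, -0.53 and -0.43 on Y. All 8 genes are autosomal, and their chromosomes (2, 4, 5, 7, 14 and 17) had means between -0.046 and 0.023 in every tumour. The window of the targeted gene, Trp53, averaged 0.12, -0.043, -0.052 and 0.028 in tumours 1 to 4 (limma, adjusted p = 0.87), and its 2 named probes 0.52, 0.32, -0.16 and 0.29. The labels do not give the deleted part of Trp53, so these probes do not check the genotype. There was 1 array per tumour and no other group, so ratios were tested against 0 over the 4 tumours, and the pool's own variation does not enter the errors. Ratios come from bulk tissue, in which a change in some of the cells and a smaller change in all of them cannot be told apart.

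Cdkn1a was the lowest of the 8 gene windows by mean and the one window that stood below its surroundings past the test. Its 9 probes averaged -0.12, -0.27, -0.43 and -0.25 in tumours 1 to 4, against 0.13, 0.021, -0.083 and -0.0099 over the 211 probes around it. The window mean was thus lower than that of its surroundings in each tumour, by the signed differences of -0.25, -0.29, -0.35 and -0.24. The SE of these differences over probes was 0.22, 0.21, 0.23 and 0.20. That spread over probes does not enter the interval and tests below, which rest on the spread over the 4 tumours. The mean difference was -0.28 ± 0.050 (SD, n = 4; 95% interval -0.34 to -0.22), and limma gave an adjusted p of 0.0033 over all 20792 gene windows. Among all windows 7.86% passed this test and 4.48% passed it as lower. That background was unstable: 8069 windows passed without tumour 3, against 1634 with all tumours, 135 without tumour 1, 69 without tumour 2 and 38 without tumour 4. Against 0 the Cdkn1a window averaged -0.27 ± 0.13 (SD, n = 4), with an unadjusted limma p of 0.0023 and an adjusted p of 0.19. Flipping the signs of the tumours in every way (exact test, two-sided) gave p = 0.125 for both values, the smallest that 4 tumours allow.

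**Figure D1:**
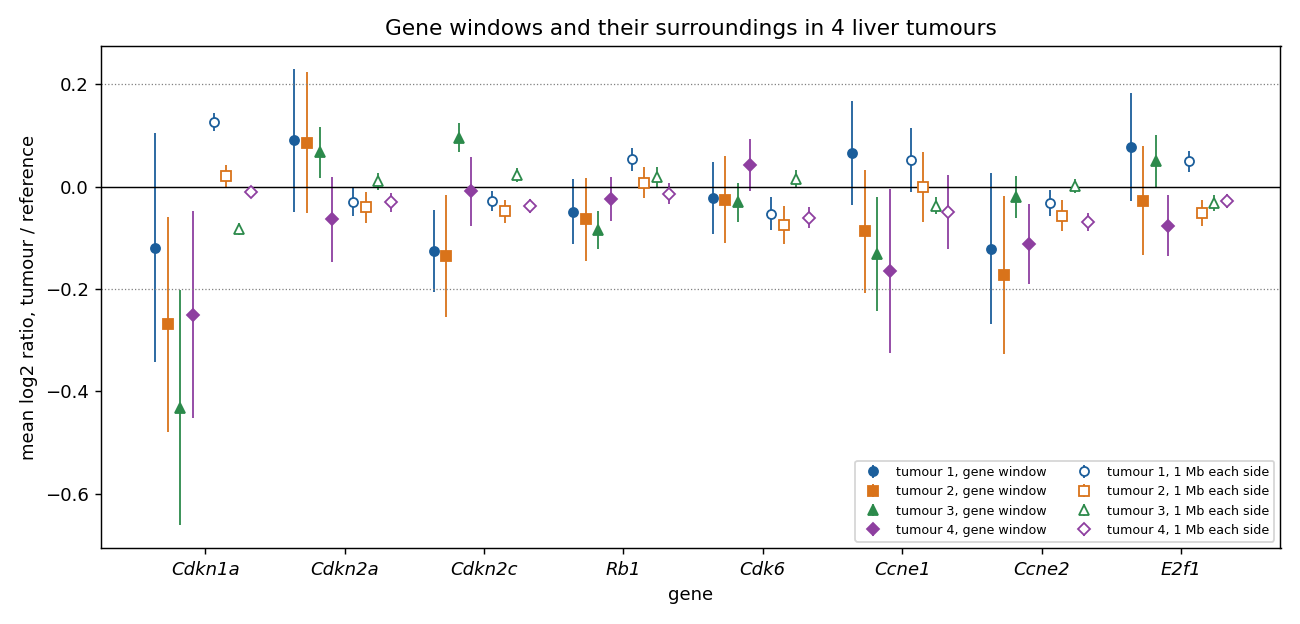
Mean log2 ratio, tumour over reference, of the 8 gene windows (filled symbols) and of the 1 Mb on each side (open symbols) in each tumour; bars are the SE over probes, and dotted lines mark 0.2 and -0.2. The Cdkn1a window lies below its surroundings in all 4 tumours, and the other windows lie within 0.2 of 0.

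The low mean of the Cdkn1a window was not spread evenly over its 9 probes. A single unnamed probe 43.4 kb before the Cdkn1a probe read -1.56, -1.54, -1.14 and -1.79 in tumours 1 to 4. It was the lowest probe of the window in tumours 1, 2 and 4, and the second lowest in tumour 3. Its tumour signal was 106, 143, 103 and 88.8 units, against a reference signal of 319, 414, 225 and 303 units, and it was well above background in both channels of every array. Its mean was -1.51 ± 0.27 (SD, n = 4), with a limma adjusted p of 0.00036 over all autosomal probes, of which 6.23% passed. In all, 0.0688% of the autosomal probes were at or below -1 in every tumour, as this one was. A reading at or below that of this probe occurred at 0.0334%, 0.0873%, 0.198% and 0.0316% of the autosomal probes in tumours 1 to 4. Under normexp background correction its mean was -0.63 and still passed (limma, adjusted p = 0.0037).

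The adjacent probes did not share that level. The next probe, 35.9 kb before Cdkn1a, read -0.24, -0.51, 0.057 and -0.18, and the one after it lay above 0 in all tumours, at 0.26, 0.022, 0.086 and 0.20. Without the lowest probe, an alternative chosen after the values were seen, the window differed from its surroundings by -0.066, -0.13, -0.26 and -0.049. The mean difference was then -0.13 ± 0.096 (SD, n = 4), and limma's adjusted p was 0.065. The median over the probes in place of their mean gave -0.098 (limma, adjusted p = 0.12). The call on the Cdkn1a window therefore rested on 1 probe.

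The probe named Cdkn1a itself showed no shared direction across the tumours. Its readings in tumours 1 to 4 were 0.85, 0.18, -1.99 and 0.039. In tumour 3 the tumour signal was 97.1 units, against a reference signal of 384 units, and both were well above background. In tumours 1, 2 and 4 the tumour signal was 1029, 1059 and 826 units, against 583, 930 and 795 units of reference signal. The low ratio of tumour 3 thus went with a tumour signal far under that of the other arrays, and its reference signal was also the lowest of the 4. Only 0.0254% of the autosomal probes read as low in tumour 3, and 0.165% read as high in tumour 1 as the 0.85 found there. The span between the highest and the lowest tumour was 2.84, against a median of 0.34 over the autosomal probes, and 0.0260% of them spanned at least as much.

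The mean of the Cdkn1a probe, -0.23 ± 1.22 (SD, n = 4), was not distinguishable from 0 (limma, adjusted p = 0.69). It turned to 0.36 without tumour 3 and to 0.057 under normexp background correction. In tumour 3 the probes on either side, at 9.30 kb before and 19.6 kb after, read -0.21 and -0.23. The deep reading of tumour 3 was therefore limited to 1 probe at this spacing. Probes at or below -1 in tumour 3 with the other tumours at or above 0 made up 0.039% of the autosomal ones. That pattern was taken from the Cdkn1a probe itself, so the share is a description and not a test. Leaving the Cdkn1a probe out kept the window below its surroundings, at a mean difference of -0.29 (limma, adjusted p = 0.013).

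Besides the lowest probe, 1 other of the 9 passed the test. This unnamed probe, 9.30 kb before the Cdkn1a probe, read -0.48, -0.89, -0.21 and -0.40 (limma, adjusted p = 0.038). The window held 3 probes below 0 in all 4 tumours and 2 above 0 in all 4. The count of 2 probes past the test was 1 without tumour 1, 2 or 4 and 5 without tumour 3. How many of all autosomal probes passed with a tumour left out was not counted. At the far end, the probe named for the neighbouring gene Rab44 read 0.40, 0.51, 0.012 and 0.19 and was the highest of the window by mean. Without both the lowest probe and the Cdkn1a probe, the remaining 7 differed from the surroundings by -0.18, -0.17, -0.026 and -0.063.

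**Figure D2:**
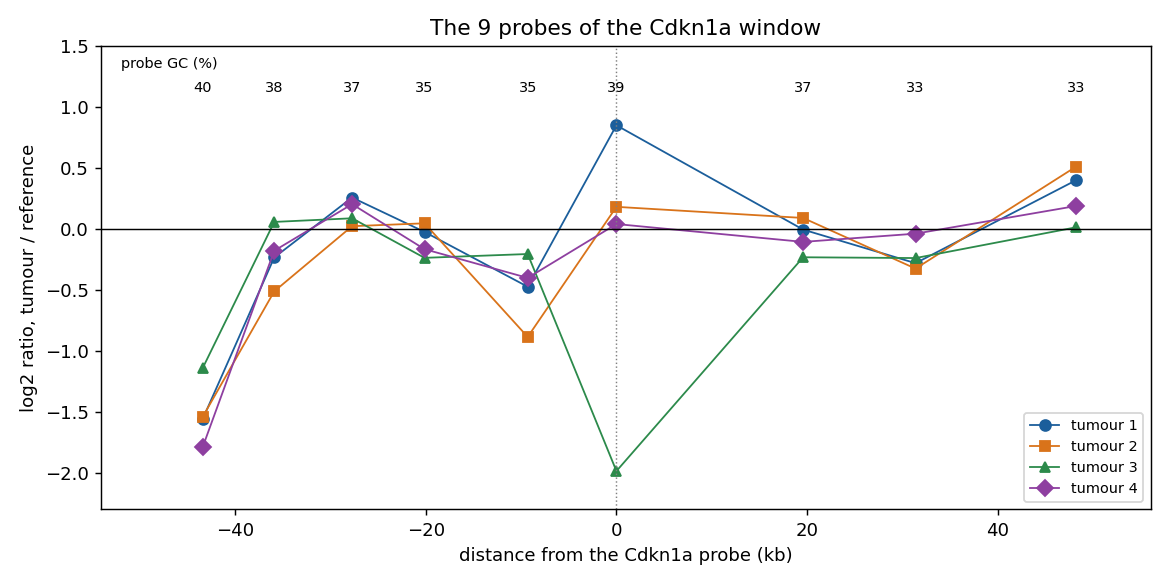
Log2 ratio, tumour over reference, of each of the 9 probes of the Cdkn1a window against the distance from the Cdkn1a probe in kb, with the GC content of each probe in percent above it. The first probe is low in all 4 tumours (-1.14 to -1.79), and at distance 0 tumour 3 (-1.99) and tumour 1 (0.85) part.

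The readings of the Cdkn1a window changed little with a correction for probe GC content. The 9 probes held 33.3% to 40.0% G and C, and the window mean of 36.3% was close to the 36.8% of the surroundings. A lowess curve of the ratio on probe GC gave the lowest probe a fitted value between -0.028 and 0.11 in the 4 tumours, far from its reading. After GC correction the window averaged -0.10, -0.25, -0.43 and -0.24, and the Cdkn1a probe read 0.77, 0.13, -1.97 and 0.014. The window stayed below its surroundings by -0.27 with the correction (limma, adjusted p = 0.0046).

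The size of the Cdkn1a difference depended on its limits. A window widened to 100 kb on each side averaged -0.13 against 0, less than with 50 kb. With the rest of chromosome 17 in place of the 1 Mb surroundings the difference was -0.26 (limma, adjusted p = 0.063). Under normexp background correction it was -0.18, and limma's adjusted p was 0.0060, in a setting where 5498 of all 20792 windows passed. On the slide that tumours 1 and 4 shared the mean difference was -0.24, and on the other slides it was -0.29 and -0.35. With 1 value per slide, the mean was -0.29 (limma, adjusted p = 0.032), and without tumour 1 it was also -0.29 (limma, adjusted p = 0.013).

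Gene windows on other chromosomes with a similar pattern to Cdkn1a were sought by the smallest Euclidean distance over the 4 tumours. The closest were Gemin5 (distance 0.110, 12 probes), ENSMUST00000108834 (0.112, 9 probes) and Pigs (0.113, 10 probes), all on chromosome 11. Gemin5 averaged -0.20, -0.31, -0.37 and -0.27 in tumours 1 to 4.

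Cdkn2a, which encodes the INK4A inhibitor and the ARF protein that acts on p53 through Mdm2, lay within 0.1 of 0 in every tumour. Its window of 7 probes on chromosome 4 averaged 0.090, 0.086, 0.067 and -0.064 in tumours 1 to 4, against -0.030, -0.041, 0.010 and -0.031 in its surroundings. The mean against 0 was 0.045 ± 0.073 (SD, n = 4; 95% interval -0.048 to 0.14; limma, adjusted p = 0.50). Minus its surroundings the window was at 0.068 (95% interval -0.0035 to 0.14; limma, adjusted p = 0.17). Under normexp background correction this difference was 0.15 and passed (limma, adjusted p = 0.025). In that setting 5498 of all 20792 windows passed, against 1634 in the main one. None of the tumours reached the threshold of 0.2 used below for single tumours.

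Of its 2 named probes (chr4:88927265-88936347), the first read 0.39, 0.49, -0.028 and 0.23, and the second read 0.11, -0.013, -0.017 and -0.077. The first was above 0.2 in tumours 1, 2 and 4, but its mean did not pass the test (limma, adjusted p = 0.094). One probe of the window, 23.2 kb before the first, named AF032968, read -0.70, -0.61, 0.35 and -0.48, with tumour 3 above 0 and the others below. Cdkn2b, which encodes the INK4B inhibitor, is the coding gene next to Cdkn2a in RefSeq's GRCm38.p6 annotation. It has no value of its own here.

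Cdkn2c, which encodes the INK4C inhibitor, had no shared direction across the tumours. Its window of 8 probes, on the same chromosome, averaged -0.13, -0.13, 0.096 and -0.0094 in tumours 1 to 4, against -0.028, -0.048, 0.022 and -0.037 in its surroundings. The SE of the window means over probes was 0.080, 0.12, 0.028 and 0.067. Tumours 1 and 2 lay below 0 and tumour 3 above it. The mean of -0.044 ± 0.11 (SD, n = 4) did not differ from 0 beyond the spread over tumours (limma, adjusted p = 0.60). Minus its surroundings the window was at -0.021 (limma, adjusted p = 0.68). Under normexp it was at -0.097 and passed (limma, adjusted p = 0.041), as did 5498 of all 20792 windows. Its own probe, chr4:109337362-109337421, read -0.23, -0.068, -0.0050 and -0.089. That probe was among those lowest in GC content, at 33.3%, where the fitted curve stood at -0.13, -0.099, 0.013 and -0.059, and after GC correction it read -0.096, 0.026, -0.017 and -0.031. In tumours 1, 2 and 4 the fitted value was larger in size than what was left of the reading.

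Rb1 was the best covered of the 8 genes, with 15 named probes over chr14:73595475-73722998 and 26 in its window. The window averaged -0.049, -0.064, -0.085 and -0.025 in tumours 1 to 4, against 0.054, 0.0078, 0.019 and -0.014 in its surroundings. All 4 tumours lay slightly below 0, and the mean of -0.056 ± 0.025 (SD, n = 4; 95% interval -0.13 to 0.015) did not pass the test (limma, adjusted p = 0.32). Minus its surroundings Rb1 was at -0.072 ± 0.043 (SD, n = 4; limma, unadjusted p = 0.018, adjusted p = 0.091). With surroundings of 500 kb in place of 1 Mb the difference was -0.11 and passed (limma, adjusted p = 0.044). So did 1580 of all 20792 windows in that setting.

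The Rb1 probes were uneven along the gene. The probe 48.1 kb from the first read -0.93, -1.37, -0.32 and -0.64 (limma, adjusted p = 0.027). The next one, 53.8 kb in, read -0.25, -0.36, -0.42 and -0.54 (limma, adjusted p = 0.031). These 2 adjacent probes, both at 36.7% GC, were the named Rb1 probes that passed. Toward the other end the probe at 118.6 kb read 0.39, 0.55, 0.14 and 0.14, above 0 in all tumours (limma, adjusted p = 0.066). Of the 15 named probes 6 were below 0 in all 4 tumours and 2 above 0 in all 4. Of all autosomal probes, 18.1% were below and 17.6% above 0 in every tumour. A probe of the window named Rcbtb2, 14.9 kb before the first Rb1 probe, also passed, but as higher. It read 0.56, 0.51, 0.10 and 0.29 in tumours 1 to 4 (limma, adjusted p = 0.049). Of the 26 probes of the window 3 thus passed, where 6.23% of the autosomal probes did.

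Cdk6, the kinase partner of the D-type cyclins, lay within 0.05 of 0 in every tumour. Its window of 21 probes, 13 of them named over chr5:3351352-3517971, averaged -0.022, -0.026, -0.031 and 0.041 in tumours 1 to 4, against -0.053, -0.074, 0.015 and -0.061 in its surroundings. The mean was -0.0092 ± 0.034 (SD, n = 4; 95% interval -0.083 to 0.064; limma, adjusted p = 0.87). Over the named probes alone it was 0.047, with values of 0.052, 0.062, -0.038 and 0.11. The sign of the mean therefore turned with the flank, with neither value past the test.

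Single Cdk6 probes reached farther from 0 than the gene mean. The named probe 42.1 kb from the first read -0.52, -0.94, -0.21 and -0.19 (limma, adjusted p = 0.055), and the one 139.3 kb in read 0.32, 0.33, 0.10 and 0.37 (limma, adjusted p = 0.056). None of the 13 named probes passed the test, and 2 other probes of the window did, 1 in each direction. An unnamed probe 13.9 kb before the gene read 0.41, 0.40, 0.38 and 0.38 (limma, adjusted p = 0.023), the most even reading over the tumours among the probes of this window. A probe named AK030810 behind it read -0.31, -0.66, -0.36 and -0.37 (limma, adjusted p = 0.030).

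**Figure D3:**
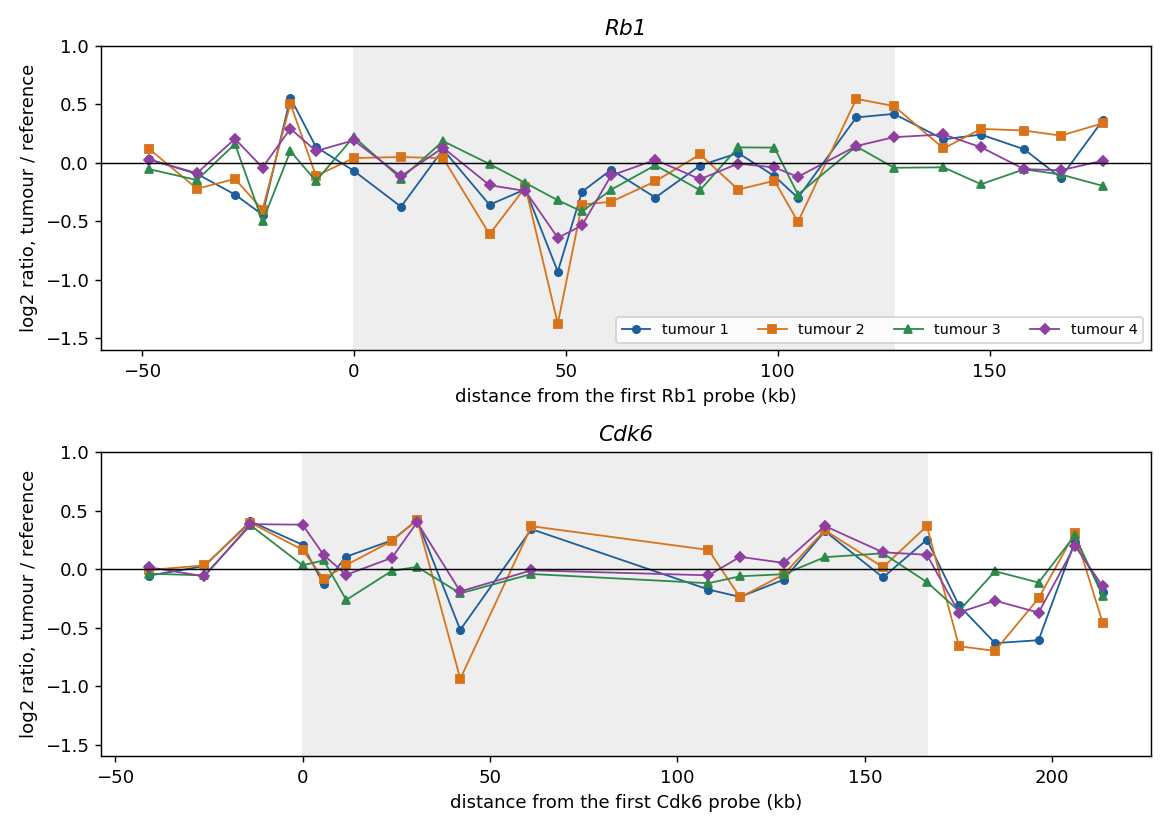
Log2 ratio, tumour over reference, of each probe in the Rb1 window (upper panel) and the Cdk6 window (lower panel) against the distance in kb from the first probe named for the gene; shading spans the named probes. Rb1 has its lowest reading 48.1 kb in, deepest in tumour 2 (-1.37), and Cdk6 has one low probe at 42.1 kb between probes near or above 0.

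Ccne1, an E-type cyclin that activates Cdk2, was below 0.1 in every tumour, both at its own probe and over its window. The window of 9 probes averaged 0.066, -0.087, -0.13 and -0.16 in tumours 1 to 4, against 0.053, -0.0011, -0.037 and -0.050 in its surroundings. Its own probe, chr7:38889649-38889708, read -0.038, -0.059, -0.15 and -0.13. The window mean of -0.079 ± 0.10 (SD, n = 4) did not pass the test (limma, adjusted p = 0.34), nor did the difference from the surroundings of -0.070 (limma, unadjusted p = 0.031, adjusted p = 0.12). Within the window the probe 8.8 kb after the Ccne1 probe spread most, at 0.43, -0.43, -0.87 and -1.34, with tumour 1 high and tumour 4 low.

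Beside Ccne1, outside its window, lay the highest ratios near any of the genes. The 2 adjacent probes printed above, 71.3 and 78.5 kb after the Ccne1 probe and both named AK181724, were picked out after their values were seen. The first read 3.27, 3.26, -0.0026 and 3.57 in tumours 1 to 4, and the second read 2.88, 3.03, -0.20 and 3.29. Tumours 1, 2 and 4 were high at both probes and tumour 3 was at the reference level. At the first probe the tumour signal was 12710, 15985, 2022 and 17141 units, against a reference signal of 1346, 1655, 2018 and 1427 units. Of 161427 autosomal probes with a value in every tumour, these 2 were the only ones at or above 2.5 in tumours 1, 2 and 4 together. Both were below 0.5 in tumour 3. The pattern counted was that of the pair itself, so the count is a description and not a test.

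The high stretch was short. The probe 60.4 kb after Ccne1 read 0.11, 0.081, -0.17 and 0.021, and the one 92.9 kb after it, named 1600014C10Rik, read 0.46, 0.33, 0.038 and 0.43. The annotated coding neighbours of Ccne1 in RefSeq's GRCm38.p6 are Uri1 and 1600014C10Rik, and the name AK181724 was carried by other probes of the Ccne1 window that were not high. A Ccne1 window of 100 kb on each side took in the pair and averaged 0.22 over the tumours (limma, adjusted p = 0.24), against -0.079 with 50 kb. Without the pair, the Ccne1 window differed from its surroundings by -0.0082 (limma, adjusted p = 0.87), so the pair made up most of the difference of -0.070.

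**Figure D4:**
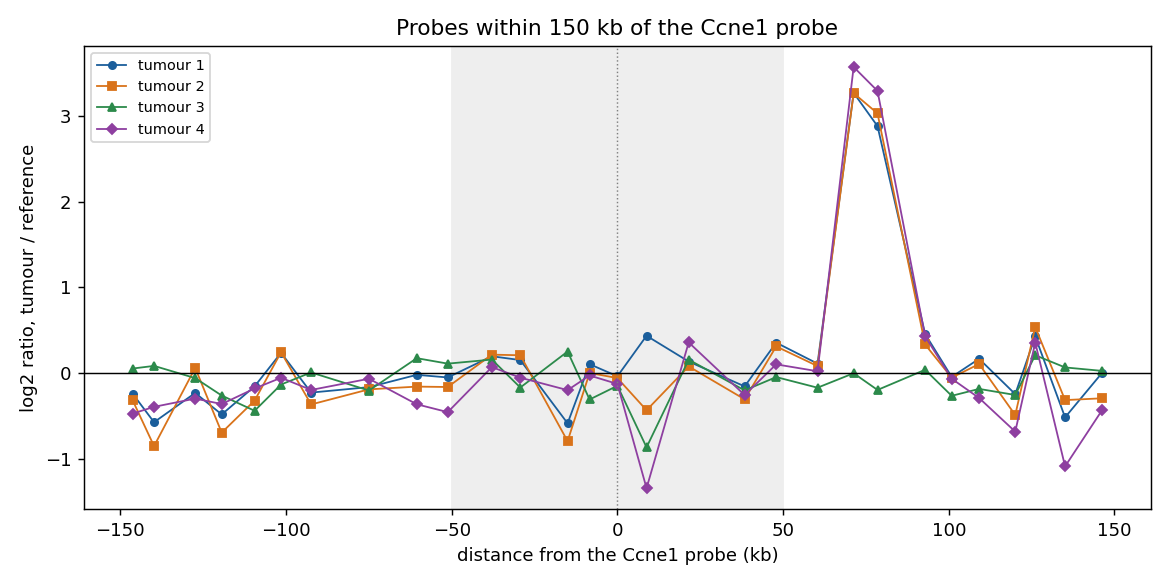
Log2 ratio, tumour over reference, of the probes within 150 kb of the Ccne1 probe against the distance in kb; shading marks the Ccne1 window. A pair of probes at 71.3 and 78.5 kb reaches 2.88 to 3.57 in tumours 1, 2 and 4 and lies at -0.0026 and -0.20 in tumour 3.

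Ccne2, the other E-type cyclin, lay a little below 0 in all tumours. Its window of 10 probes on chromosome 4 averaged -0.12, -0.17, -0.020 and -0.11 in tumours 1 to 4, against -0.032, -0.057, 0.00094 and -0.069 in its surroundings. The mean of -0.11 ± 0.064 (SD, n = 4) had an unadjusted limma p of 0.024 and an adjusted p of 0.20. Minus its surroundings the window was at -0.067 ± 0.043 (SD, n = 4; limma, unadjusted p = 0.024, adjusted p = 0.10). It passed without tumour 3, at -0.083 (limma, adjusted p = 0.024). In that setting 8069 of all 20792 windows passed, against 1634 with all tumours, so the call is not particular to Ccne2.

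The Ccne2 probe itself was low in 3 tumours. It read -0.89, -1.04, 0.017 and -0.53, with tumour 3 at the reference level, and its mean of -0.61 ± 0.47 (SD, n = 4) narrowly missed the threshold (limma, adjusted p = 0.0501). In tumours 1, 2 and 4 only 0.637%, 0.716% and 1.67% of the autosomal probes read as low. The next probe, 10.9 kb on and named for Ints8, a subunit of the Integrator complex, read -0.73, -0.73, -0.17 and -0.42 (limma, adjusted p = 0.034). The following one, 22.8 kb on, read -0.19, -0.13, 0.014 and -0.046. Low readings at Ccne2 thus covered 2 adjacent probes and were smallest in tumour 3. Another probe of the window, 28.1 kb before and named Trp53inp1, read -0.50, -0.34, 0.19 and -0.24. Other windows held such probes too, among them a probe named Faf1 by Cdkn2c (-0.49, -0.79, 0.22 and -0.27). Low tumours 1, 2 and 4 beside tumour 3 were thus not particular to Ccne2. Tumours 1, 2 and 4 shared a probe pattern over the autosomes, so their readings are not separate support.

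E2f1, the transcription factor released when Rb1 is phosphorylated, averaged 0.077, -0.028, 0.050 and -0.076 over the 9 probes of its window in tumours 1 to 4, against 0.050, -0.052, -0.032 and -0.028 in its surroundings. Tumours 1 and 3 lay above 0 and tumours 2 and 4 below it. The mean of 0.0057 ± 0.070 (SD, n = 4; limma, adjusted p = 0.94) and the difference of 0.021 from the surroundings (limma, adjusted p = 0.59) were both small beside the spread. Its own probe, chr2:154387568-154387627, read 0.21, 0.076, -0.074 and 0.068. The probe held 40.0% G and C, and after GC correction it read 0.097, 0.021, -0.045 and 0.036.

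Across the 8 genes, no window passed the test against 0, which 0.0433% of all windows passed. The unadjusted limma p was under 0.05 for 2 of 8 windows against 0, Cdkn1a and Ccne2, where 20.5% of all windows had such a value. For the difference from the surroundings it was under 0.05 for 4 of 8 (Cdkn1a, Rb1, Ccne1 and Ccne2), where 33.2% of all windows had such a value. All 4 were lower, as were 16.9% of all windows at that level. The median of the 8 was -0.050 against 0 and -0.044 minus surroundings, beside -0.0047 and 0.0013 over all windows. Windows below 0 in every tumour numbered 3 of 8 (Cdkn1a, Rb1 and Ccne2), and 18.9% of all windows were. The same 3 genes lay below their surroundings in every tumour, as did 19.1% of all windows.

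At a threshold of 0.2 in a single tumour, for which there is no test, no gene of the 8 was higher in any tumour, and Cdkn1a was the one gene lower. It was at or below -0.2 in tumours 2, 3 and 4, as were 10.8%, 3.04% and 1.48% of all windows. In tumour 1 none of the 8 genes reached 0.2 in either direction, where 12.1% of all windows were higher and 8.95% lower. In tumours 2, 3 and 4, 9.39%, 0.433% and 0.144% of all windows were higher. At 0.1 Cdkn2c was also lower in tumours 1 and 2, Ccne1 in tumours 3 and 4, and Ccne2 in tumours 1, 2 and 4. At that level 18.5%, 26.2%, 20.5% and 11.8% of all windows were lower in tumours 1 to 4.

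Among the 99 probes of the 8 windows, 22 were below 0 in all 4 tumours and 15 above, and 8 passed the test of single probes. Over the autosomal probes 18.1% were below and 17.6% above 0 in every tumour and 6.23% passed, so these counts lie near the background. Probes at or beyond 1.5 in either direction in any tumour numbered 6 of the 1219 in the windows and surroundings, 2 of them in a window, both that of Cdkn1a, and 0.196% of the autosomal probes read as far from 0. The others were the pair beside Ccne1, a probe named Dmrta2 318 kb from Cdkn2c (1.52, 0.18, -1.24 and 1.31) and a probe named Ahcy 512 kb from E2f1 (1.08, -0.98, -1.76 and -0.61). At the last 2 the tumours differed in direction. No probe around Cdkn2a, Rb1, Cdk6 or Ccne2 read as far from 0.

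The probe-to-probe pattern in the 8 windows was shared most by tumours 1 and 2. Over the 99 probes Pearson's r was 0.87 for tumours 1 and 2, 0.74 for tumours 2 and 4, 0.65 for tumours 1 and 4 and 0.46 for tumours 3 and 4. It was 0.22 for tumours 2 and 3 and 0.037 for tumours 1 and 3. Probes of one array share a hybridisation and the tumours may share the reference pool, so these are descriptions. Over all autosomal probes the same pairs had 0.84, 0.69, 0.69, 0.32, 0.19 and 0.094. Probe GC correlated with the ratio at 0.19, 0.094, -0.16 and 0.0051 over the 99 probes in tumours 1 to 4, against 0.218, 0.131, -0.049 and 0.130 over the autosomes. After GC correction no window of the 8 moved to the other side of the test.

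The wider pathway was read from a list of 46 other genes, of which 37 were on the array. The absent names were Cdk2, Cdk4, Ccna2, Cks1b, Cdkn1b, Cdkn1c, Cdkn2d, Cdt1 and Rrm2. Against 0, none of the 37 passed the test, and 9 had an unadjusted limma p under 0.05, 7 of them lower and 2 higher, a share near the 20.5% of all windows with such a value. The median of the list was -0.019 against 0 and -0.021 minus surroundings. Minus surroundings 3 of the 37 passed, where 7.86% of all windows did, so the count is near the background: Rbl1 and Mcm2 were lower and Ccnd1 higher.

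Rbl1, a relative of Rb1 that binds other E2F factors, differed from its surroundings by -0.21, -0.27, -0.12 and -0.23 in tumours 1 to 4 (mean -0.21, limma, adjusted p = 0.017). Mcm2, a subunit of the replicative helicase, differed by -0.16, -0.22, -0.080 and -0.18 (mean -0.16, limma, adjusted p = 0.028). Ccnd1, the D-type cyclin that pairs with Cdk4 and Cdk6, differed by 0.15, 0.19, 0.049 and 0.14 (mean 0.13, limma, adjusted p = 0.036). In each gene tumour 3 had the smallest difference. None of the 3 passed over the named probes alone: Rbl1 was then at -0.11 (limma, adjusted p = 0.13), Ccnd1 at 0.22 (limma, adjusted p = 0.099) and Mcm2 at 0.23, the opposite sign (limma, adjusted p = 0.26). With the median over probes Rbl1 was at -0.074, Ccnd1 at 0.075 and Mcm2 at -0.23, and none passed (limma, adjusted p = 0.23, 0.18 and 0.059). With 1 value per slide, which averages tumours 1 and 4, Rbl1, Mcm2 and Ccnd1 were at -0.20, -0.16 and 0.13, and none passed (limma, adjusted p = 0.13, 0.15 and 0.17). Nor did any of the 3 pass with the rest of the chromosome as surroundings, or without tumour 1, 2 or 4, where the lowest adjusted p (limma) was 0.060, that of Rbl1 against the rest of its chromosome.

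**Figure D5:**
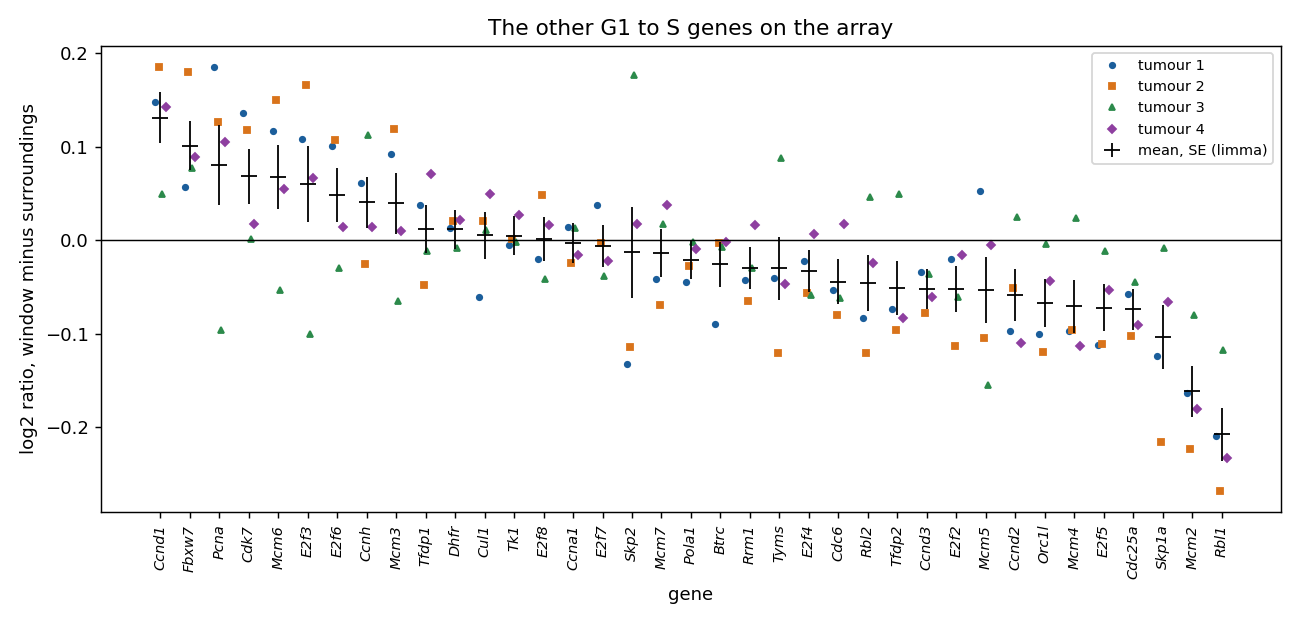
Log2 ratio of the window minus its surroundings for the other 37 G1 to S genes on the array, ordered by mean; symbols are tumours, and black bars are the mean with limma's SE. Ccnd1 stands highest (0.13) and Rbl1 lowest (-0.21), with most genes within 0.1 of 0.

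Other genes of the pathway lay on chromosomes that were low as a whole. Cdc25a, the phosphatase that activates Cdk2, lies on chromosome 9 and averaged -0.32, -0.29, -0.20 and -0.14 in tumours 1 to 4, where the whole chromosome averaged -0.31, -0.19, -0.10 and -0.025. Minus its surroundings it was at -0.074 (limma, adjusted p = 0.071). Tfdp2, a dimerisation partner of E2F factors on the same chromosome, averaged -0.42, -0.30, -0.082 and -0.12, and minus its surroundings -0.051. E2f6, an E2F factor that represses, lies on chromosome 12 and averaged -0.16, -0.091, -0.15 and -0.031, where that chromosome averaged -0.29, -0.23, -0.073 and -0.018.

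Pola1, the catalytic subunit of DNA polymerase alpha, had the highest mean of the list and is X-linked. It averaged 0.80, 0.20, 0.016 and -0.073, against an X chromosome mean of 0.81, 0.18, 0.037 and -0.050, and its difference from its surroundings was between -0.044 and -0.0021. Fbxw7, which directs cyclin E to degradation, was above 0 in all tumours, at 0.077, 0.17, 0.053 and 0.088 (limma, unadjusted p = 0.026, adjusted p = 0.20). Skp1a, a subunit of the same ubiquitin ligase, was below 0 in all tumours, at -0.067, -0.28, -0.075 and -0.11 (limma, unadjusted p = 0.025, adjusted p = 0.20).

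Of the remaining named genes of the list, Orc1l, a subunit of the origin recognition complex, was at -0.086, -0.15, -0.038 and -0.092 (limma, adjusted p = 0.21). E2f5 averaged -0.11, and Mcm4, another helicase subunit, -0.082. Ccnd3, a D-type cyclin, averaged -0.038, and Cdk7, the kinase that activates other cyclin-dependent kinases, 0.0022. None of these 5 passed the test against 0 or against the surroundings.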

How the data were processed

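Genomic DNA of 4 tumours was measured on 2-colour arrays. The deposited log10 ratios, red over green, were made by the authors with Agilent Feature Extraction 10.7.3.1, per the submitters' processing notes; per the file headers they are background-subtracted and linearly dye-scaled, and the lowess dye term was 0. The deposited intensity values are the processed and raw signals of both channels. The deposited value table matched the ratios within 0.5%.

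Ratios were turned to log2, outlier-flagged spots (93 to 126 per array) were left out, repeated spots were averaged, and the autosomal median was subtracted per array. Window means, their differences from the surroundings and single probes were tested with limma 3.58.1 (R 4.3.3, moderated intercept), with Benjamini-Hochberg adjustment over all 20792 windows, or all autosomal probes, and a threshold of 0.05. A window is a gene name on 1 chromosome; 3 spanning over 3 Mb were left out. Permutation tests were exact sign flips. At least 99.96% of spots were well above background; the number of arrays limits precision.

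The labels say the tumours came from separate mice. The genes, lists and tests were chosen with earlier results of these data known. Named by rule were all members, Trp53, pathway genes with an unadjusted p under 0.05 in either test or at 0.2 or beyond the same way in at least 2 tumours, the list's highest and lowest mean, and the 3 windows most like Cdkn1a with at least 3 probes. On simulated data for 20792 windows, 48% of changes of 0.3 were called against 0 and 97% of changes of 1. Minus surroundings the shares were 86% and 100%. The simulated noise was drawn independently for each window and tumour, without the probe pattern that tumours share here. These shares therefore need not hold for the real windows. Alternatives were the value table, normexp (offset 50), mode centring, dim-probe filtering, GC lowess, other flanks, surroundings and thresholds, and leaving out each tumour; medians, single probes left out and 1 value per slide were added after the data were seen.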

Additional observations from a re-analysis of the deposited data

Results flagged for a closer look

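In 60 sets of 4 tumour values for the named genes, a single tumour lay far from the other 3, by the gap over the range, in 5 sets; chance flags about 1 in 20. The Cdkn2a window was low in tumour 4 at -0.064, beside 0.067 to 0.090 in the others. The Cdk6 window was high in tumour 4 at 0.041, beside -0.031 to -0.022. Tumour 3 stood apart in the other 3 sets: the Tfdp2 difference from its surroundings was 0.049, beside -0.096 to -0.073, the Mcm4 window was at 0.073, beside -0.14 to -0.13, and the Mcm4 difference was 0.024, beside -0.11 to -0.095. The SE over probes was 0.083 for the Cdkn2a window and 0.051 for the Cdk6 window in tumour 4.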

How the results depend on the processing

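No paired analysis was possible because all tumours form 1 group. Slide as a random block could not be estimated with 4 arrays on 3 slides and was not run. Where no cause is named below, the cause was not tested.

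Against 0, no gene of the 8 passed under any setting run. The count over all windows was 9, against 30 with no flank, 27 with no flank and GC correction, and 0 to 9 with a tumour left out. Minus surroundings the count of 1634 became 82 with the rest of the chromosome, 5498 with normexp, 240 with no flank, 29 with medians, 50 with 1 value per slide and 38 to 8069 with a tumour left out. Of the 8 genes 1 passed, against 2 with surroundings of 500 kb, 3 with normexp (Cdkn1a, Cdkn2a and Cdkn2c), 1 to 2 with a tumour left out, and 0 with the rest of the chromosome, no flank, medians or without the lowest probe of the Cdkn1a window. In those last settings Cdkn1a stood at -0.26, -0.23, -0.098 and -0.13. It was -0.30 to -0.26 with a tumour left out.

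Of the Cdkn1a probes 2 passed, against 5 with normexp, 1 with 1 value per slide and 1 to 5 with a tumour left out. The matching counts over all autosomal probes were not made for these settings. The Cdkn1a probe turned to 0.057 with normexp and ranged from -0.59 to 0.36 with a tumour left out; the window's lowest probe ranged from -1.63 to -1.41. Genes past the single-tumour threshold, 0, 1, 1 and 1 in tumours 1 to 4, numbered 3, 3, 2 and 3 at 0.1, none in tumours 2 and 4 at 0.3, and 5 in tumour 1 and 2 in tumour 2 with no flank. All those at 0.1 were lower, as were 18.5%, 26.2%, 20.5% and 11.8% of all windows in tumours 1 to 4. At 0.3 Cdkn1a was lower in tumour 3, as were 0.447% of all windows. With no flank the share over all windows was not counted, and genes with 1 named probe rest on that probe.

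Small means changed sign. Against 0, with no flank (and with GC correction too), Cdk6 was 0.047 (0.050), Skp1a 0.067 (0.063), Mcm2 0.27 (0.26) and Mcm4 0.20 (0.17). With a 100 kb flank Ccne1 was 0.22 and Cdk7 -0.038. With normexp E2f1, Trp53 and Cdk7 were -0.0075, -0.026 and -0.012, and with centring on the mode -0.0084, -0.0020 and -0.012. Cdk7 was -0.016 with medians and -0.015 with 1 value per slide, where Trp53 was -0.0077. With a tumour left out they ranged from -0.018 to 0.033 (E2f1), -0.022 to 0.034 (Trp53) and -0.045 to 0.032 (Cdk7). Minus surroundings, no flank gave Trp53 0.22, Skp1a 0.11, Mcm2 0.23 and Mcm4 0.22; medians gave Ccne1 0.033 and Trp53 0.0094; 500 kb gave E2f1 -0.010; the rest of the chromosome gave Trp53 0.035. Cdkn2c ranged from -0.052 to 0.0050 and Trp53 from -0.038 to 0.0065 with a tumour left out. A probe spacing of 10.9 kb and 1 probe in 5 of the 8 genes limit what can be said of a gene itself.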
